A study of Cricetulus griseus with 10 samples.

Results

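The genes described here encode integrins and the proteins of focal adhesions. Their RNA levels were sequenced in CHO-K1, an established ovary line of the Chinese hamster, in the course of its adaptation to growth in suspension. A list of 37 genes was drawn up by function: 17 integrin chains and 20 proteins that act at their cytoplasmic side. All 37 were found among the 25156 features of the deposited table, 20 by symbol and 17 by Chinese hamster NCBI Gene number, and 33 had a mean of at least 10 normalised reads over the 10 libraries. Only those 33 were tested, beside 13521 features in all that passed the same filter. The 4 genes below it were the integrin chains Itga2, Itga4, Itgb7 and Itgb8. Just outside the filter stood Itga2 with a mean of 8.36 normalised reads, and just inside it stood Itgb3 with 16.9.

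Every library came from wild-type CHO-K1 cells. The 5 groups were passages 0, 2, 4, 6 and 10 of the adaptation in SFM4CHO, a commercial serum-free medium, and are called P0, P2, P4, P6 and P10. Each had 2 libraries. The labels do not say how the cells of passage 0 were grown, so medium, loss of attachment and time in culture cannot be told apart. They also do not say whether the duplicates were separate cultures, and the p-values therefore reflect no more than library-to-library spread, which may be technical.

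Integrins are heterodimers of an alpha and a beta chain that span the plasma membrane and bind extracellular matrix proteins such as fibronectin, laminin and collagen. The beta 1 chain pairs with many alpha chains and the alpha V chain with several beta chains. When bound to matrix, integrins cluster and their tails recruit talin and kindlin, which activate them, and vinculin, which strengthens the link to actin. On this base assemble the ILK, PINCH and parvin complex, the kinases FAK and Src with their adaptors paxillin and p130Cas, and actin-linked proteins such as alpha-actinin, filamin, tensin and zyxin. Zyxin is known to join adhesions that are under tension. Cells in suspension lack the flat adhesions that attached cells form on a culture surface.

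Assigned reads ranged from 8394219 to 16599495 per library. The duplicates lay close together at P0, P2 and P4, with correlations of log2 values across all tested features of 0.988 to 0.992, and further apart at P6 (0.956) and P10 (0.930). P6 replicate 2 and P10 replicate 1 stood apart from the other libraries. The feature Dym held 1.15% and 1.41% of normalised reads in these 2 libraries, 4.32% in P6 replicate 1 and 8.53 to 13.5% in the other 7. Markers of cell type were mixed. Of the mesenchymal list, Vim had 12373 to 23048 normalised reads, S100a4 696 to 3983, Pdgfra 527 to 1605 and Pdgfrb 312 to 805. Col1a1 had 3.48 to 54.8, Thy1 had no read and Col1a2 had at most 3.37. Of the epithelial list, Cdh1 (E-cadherin) had 50.6 to 337 and Epcam 2.87 to 16.4, while the keratins Krt8, Krt18 and Krt19 reached at most 4.95. Of the granulosa cell markers of the ovary that matched a feature, Amh, Fshr and Inha stayed between 8.33 and 50.6, and Star, a steroidogenic transport protein, was at 206 to 1817. In such bulk samples, fewer cells of a type and less RNA per cell cannot be told apart.

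Against passage 0, more members were called lower than higher at P2, P6 and P10, and equal numbers at P4. More falls were called at P6 and P10, where more of all tested features were called too. At P10, 8 of the 33 members fell, 3 rose and 22 did not pass (limma, Benjamini-Hochberg adjusted p under 0.05 over all tested features). The fallers were Itga3, Itga5, Itga9, Itgb1, Zyx, Actn1, Actn4 and Pdlim5, and the risers were Csrp1, Ptk2 and Lims1. The share called was 33.3% of members beside 17% of all tested features. By direction it was 24.2% lower beside 8.25% of all features, and 9.09% higher beside 8.77%. At P6, 8 members fell and 1 rose, 27.3% of members beside 21% of all features, of which 10.5% were lower and 10.5% higher. At P4, 2 fell and 2 rose (12.1% beside 9.24%, of which 5.52% lower and 3.72% higher), and at P2, 2 fell and 1 rose (9.09% beside 4.15%, of which 2.07% lower and 2.08% higher). The 4 comparisons share the P0 libraries.

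Of the 22 members that did not pass at P10, 18 had a lower and 4 a higher mean log2 value than at P0, with a median difference of -0.35. Over all 33 members, called ones included, 26 had a lower mean log2 value than at P0, with a median difference of -0.41 on the log2 scale beside 0.00217 over all tested features. The median was -0.41 at P2, -0.18 at P4 and -0.38 at P6. In 21 members both P10 libraries lay below both P0 libraries, and in 3 both lay above, where 26% and 28.3% of all tested features did so. At P6 the libraries of 17 members lay wholly below and of 5 wholly above those of P0 (all features 35.7% and 32%), at P4 of 19 and 5 (34.6% and 37.8%) and at P2 of 19 and 7 (32.9% and 34.2%). Each library taken alone against the P0 mean gave a median from -0.18 (P4 replicate 2) to -0.54 (P10 replicate 1). In every one of the 8 later libraries Zyx was the lowest of the 33. Csrp1 was the highest in 7 of them, and in P6 replicate 2 the highest was Itgb3, a gene of few reads.

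**Figure D1:**
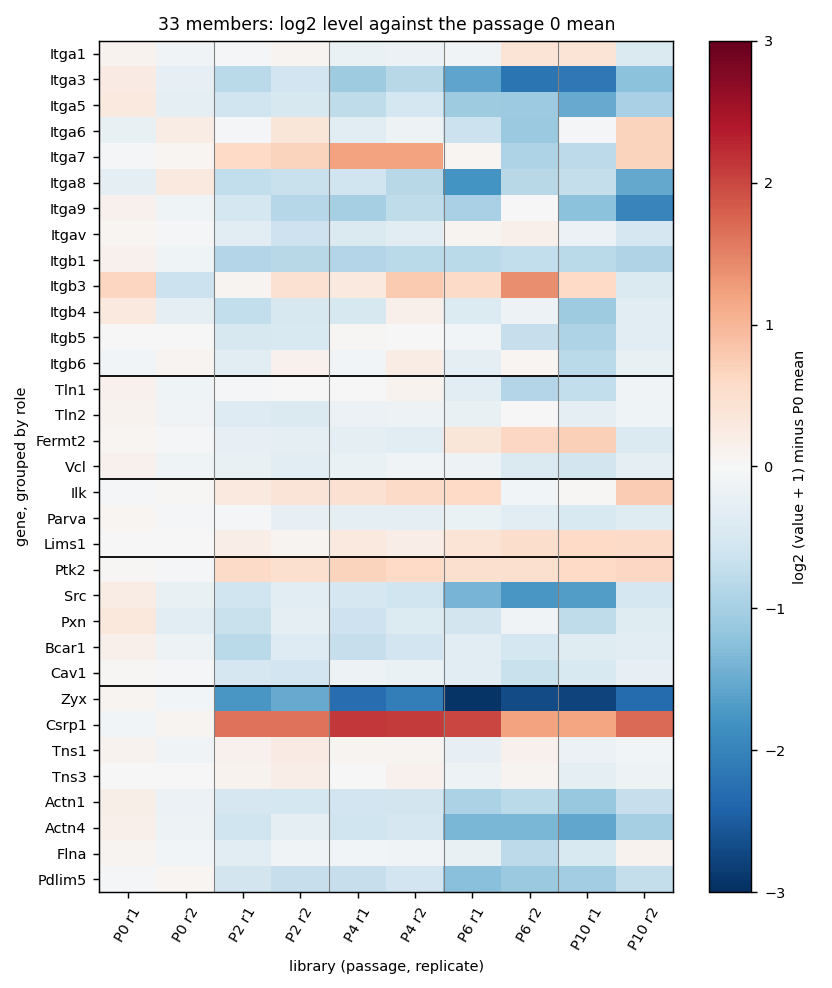
Level of each of the 33 tested members (rows, grouped by role) in each of the 10 libraries (columns), as log2 of the deposited value plus 1 minus the mean of the 2 P0 libraries; red is higher and blue lower than P0. Zyx is the deepest blue row and Csrp1 the deepest red, and most other rows after P0 are pale to mid blue.

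These counts depended on the libraries used, and the share of all tested features called moved with them. The P10 count of 11 went to 1 without P0 replicate 1 (3.03% of members beside 2.33% of all features), to 3 without P0 replicate 2 (9.09% beside 4.73%) and to 6 without either P4 library (18.2% beside at most 9.87%). It went to 21 when P6 replicate 2 and P10 replicate 1 were both left out (63.6% beside 46.3%). It went to 0 when the spread came from the P0 and P10 libraries alone (all features 0.362%). The P6 count of 9 went to 1 without P0 replicate 1 (3.03% beside 3.05%), to 3 without P0 replicate 2 (9.09% beside 5.19%) and to 16 without either P10 library (48.5% beside 40.2%).

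Among the alpha chains, Itga3, the laminin receptor chain of integrin alpha 3 beta 1, showed a fall over several passages. The P0 libraries had 1767 and 1255 normalised reads, the P2 libraries 855 and 999, the P4 libraries 712 and 836, the P6 libraries 497 and 324, and the P10 libraries 338 and 634. No later library reached the lower P0 value. Between P0 and P10 its mean went from 1511 ± 363 to 486 ± 209 (SD, n = 2 libraries each), which is 3.11-fold lower. The log2 change was -1.68 (SE 0.33, limma adjusted p = 0.0115), and it was -1.89 (SE 0.33, adjusted p = 0.00708) at P6. Both calls missed the threshold once P0 replicate 1 was left out (adjusted p = 0.114 at P10 and 0.0757 at P6).

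Itga5 encodes the alpha chain of the classical fibronectin receptor. It had 1233 and 832 normalised reads in the P0 pair, 668 and 731 in the P2 pair, 599 and 702 in the P4 pair, 487 and 474 in the P6 pair, and 352 and 514 in the P10 pair. All 8 later libraries were below both P0 libraries. Itga5 fell by 1.08 on the log2 scale at P6 (SE 0.24, limma adjusted p = 0.0186) and by 1.25 at P10 (SE 0.24, adjusted p = 0.0115). Leaving out P0 replicate 1 ended the P10 call (adjusted p = 0.112), and the P6 call was lost without P0 replicate 1 or either P6 library (highest adjusted p = 0.147).

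Itga9, an alpha chain that binds tenascin and osteopontin among others, was at a low level and did not follow the passages evenly. Its pairs read 100.2 and 84.8 (P0), 63.5 and 50.3 (P2), 45.5 and 53.6 (P4), 46.2 and 93.2 (P6), and 38.8 and 22.6 (P10) normalised reads. P6 replicate 2 lay between the P0 values. Only the P10 difference was called, with a log2 change of -1.60 (SE 0.39, limma adjusted p = 0.0264). It missed the threshold without either library of P0, P2 or P4 (highest adjusted p = 0.170).

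Other alpha chains did not pass in any comparison. Itga8, a further chain of matrix receptors that recognise the RGD peptide, had 53.1 and 79.0 at P0 and 18.0 to 42.5 afterwards, with no overlap (log2 difference at P10 -1.13, limma adjusted p = 0.0984). Itga7, a laminin receptor chain best known from muscle, went the other way at first. From 315 and 338 in the P0 libraries it stood at 494 and 520 (P2), then 756 and 755 (P4), and then 337 and 171 (P6) and 190 and 517 (P10). The P4 difference was 1.21 on the log2 scale and did not pass (adjusted p = 0.131). Itgav, the vitronectin receptor chain, had 4008 and 3707 at P0, 2523 to 3098 at P2 and P4, and 4081 and 4257 at P6. At P10 it had 3393 and 2710, again below both P0 libraries (log2 difference -0.35, adjusted p = 0.238). Itga1 and Itga6, a collagen and a laminin receptor chain, stayed between 98.9 and 345 normalised reads.

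Among the beta chains, Itgb1 dropped once and then stayed level. Its P0 libraries had 14044 and 11794 normalised reads, and all 8 later libraries lay between 6925 and 7666. The fall from 12919 ± 1591 at P0 to 7090 ± 156 at P2 was a ratio of 1.82, with a log2 change of -0.86 (SE 0.19, limma adjusted p = 0.0416). The changes at P4, P6 and P10 were -0.84, -0.78 and -0.86 (adjusted p = 0.0270, 0.0236 and 0.0176). Between P2 and P10 the difference was 0.0030 on the log2 scale (SE 0.19, adjusted p = 0.997). Itgb1 missed the threshold against P0 without either library of P0, P2 or P4 at P2 and P4, also without P6 replicate 1 at P6, and without either library of P0 or P4 at P10 (highest adjusted p = 0.345, 0.227, 0.169 and 0.155).

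No other beta chain passed. Itgb5, which pairs with alpha V, had 6969 and 6939 normalised reads at P0 and 4981 and 5044 at P2, but 7135 and 6956 at P4, so the P4 libraries were back at the level of P0. At P10 it had 3689 and 5606 (log2 difference -0.61, limma adjusted p = 0.144). Itgb4 and Itgb6, beta chains typical of epithelia, stayed between 60.8 and 156 and between 21.9 and 45.5. Itgb3 had 7.19 to 32.6. Of the chains below the filter, Itgb7, a chain typical of leukocytes, had 5 and 8 reads in the P0 libraries and at most 4 in any other. Itga2 had 84 reads over all 10 libraries, Itga4 18 and Itgb8 16, of which 7 were in P6 replicate 2.

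Summed over the 17 integrin chains, normalised reads were 29182 and 25697 at P0 and between 15988 and 20461 in the 8 later libraries. Itgb1 alone held 48.1% and 45.9% of this sum at P0 and 35.3 to 45.6% afterwards. These shares are of reads, which also grow with transcript length, so they do not rank the chains.

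The direct activators and the vinculin clamp, Tln1, Tln2, Fermt2 and Vcl, did not pass in any of the 6 comparisons made. Vcl, vinculin, went from 4257 ± 561 at P0 to 3184 ± 389 at P10 (log2 difference -0.42, SE 0.19, limma adjusted p = 0.166). Tln1, the main talin of most cells, had 1886 to 2248 normalised reads before P6. It had 1614 and 1125 at P6 and 1235 and 1912 at P10 (log2 difference at P10 -0.42, adjusted p = 0.282). Tln2, the second talin, stayed between 1119 and 1620. Fermt2, kindlin 2, held 3338 to 4419 before P6, then 5416 and 6481 at P6, but 6958 and 3129 in the 2 P10 libraries.

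Of the ILK complex, Lims1 rose. It encodes the LIM domain protein PINCH1, which binds ILK. The pairs had 2287 and 2317 (P0), 2640 and 2444 (P2), 2803 and 2663 (P4), 3083 and 3341 (P6), and 3503 and 3415 (P10) normalised reads. The P0 libraries were the lowest 2 and the P10 libraries the highest 2 of the 10. The log2 change at P10 was 0.59 (SE 0.15, limma adjusted p = 0.0325), and it missed the threshold without either library of P0, P2 or P4 (highest adjusted p = 0.185). Parva, the actin-binding parvin of the complex, was at 2732 ± 153 at P0 and 2051 ± 90.9 at P10 and did not pass (log2 difference -0.41, adjusted p = 0.106). Ilk, the pseudokinase at its centre, was at 591 ± 26.2 and 803 ± 277 (0.40, adjusted p = 0.356).

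The 2 kinases of the adhesion signal differed from P0 in opposite directions, though no comparison called both. Ptk2, focal adhesion kinase (FAK), had 2109 and 2018 normalised reads at P0, and all 8 later libraries had 2858 to 3293. It rose by 0.64 on the log2 scale at P4 (SE 0.15, limma adjusted p = 0.0347) and by 0.61 at P10 (adjusted p = 0.0276). At P2 and P6 the differences were 0.53 and 0.47 and did not pass (adjusted p = 0.0973 and 0.0555). Both calls were lost without either library of P0, P2 or P4 (highest adjusted p = 0.256 and 0.152).

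Src, which phosphorylates FAK and its partners, had 384 and 285 normalised reads in the P0 libraries, 220 and 259 (P2), 233 and 217 (P4), 124 and 97.7 (P6), and 102 and 228 (P10). The second P10 library was at the level of P2 and P4. Src fell by 1.58 at P6 (SE 0.35, limma adjusted p = 0.0180) and did not pass at P10 (-1.11, adjusted p = 0.0628). The P6 call was lost without either P0 library or P6 replicate 2 (highest adjusted p = 0.137).

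The adaptors Pxn (paxillin), Bcar1 (p130Cas) and the membrane scaffold Cav1 (caveolin 1) did not pass in any comparison. Pxn was at 130 ± 39.3 at P0 and 86.7 ± 17.6 at P10 (log2 difference -0.56, limma adjusted p = 0.245). Cav1 was at 7389 ± 224 and 5827 ± 575 (-0.35, adjusted p = 0.255), and all 8 later libraries were below both P0 libraries. Bcar1 behaved likewise, with 318 and 256 at P0 and 162 to 229 afterwards.

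Zyx, the tension-sensing zyxin, had the largest fall of the 33 members at P10. Its libraries had 421 and 374 normalised reads (P0), 117 and 139 (P2), 80.1 and 93.2 (P4), 50.9 and 60.7 (P6), and 56.5 and 79.6 (P10). The P0, P2, P4 and P6 pairs did not overlap one another and went down in that order. The log2 changes against P0 were -1.63 at P2, -2.18 at P4, -2.81 at P6 and -2.55 at P10 (SE 0.25 each, limma adjusted p = 0.0103, 0.00209, 0.000532 and 0.000883). Zyx passed at P4, P6 and P10 whichever of the 10 libraries was left out. At P2 it missed the threshold without either library of P0 or P2 (highest adjusted p = 0.141). When only the P0 and P10 libraries entered the fit, its P10 adjusted p was 0.0536.

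Csrp1, a LIM domain protein that binds zyxin and alpha-actinin, went the opposite way. It had 2238 and 2481 normalised reads (P0), then 7294 and 7256 (P2) and 10182 and 10015 (P4). At P6 it had 9417 and 5434, and at P10 5322 and 7659. Every later library was above both P0 libraries by a wide margin, and the P4 pair was the highest. The log2 changes were 1.63, 2.10, 1.60 and 1.44 at P2, P4, P6 and P10 (SE 0.28 each, limma adjusted p = 0.0180, 0.00386, 0.00747 and 0.0119). The calls at P6 and P10 were lost without either P0 library (highest adjusted p = 0.0764 and 0.111). The P2 call was lost without either library of P0, P2 or P4 (0.186), and the P4 call without P0 replicate 1 or either P4 library (0.0556).

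The alpha-actinins, which crosslink actin filaments, fell at the late passages. Actn1 had 3009 and 2381 at P0, 1812 to 1874 in the 4 libraries of P2 and P4, then 1386 and 1532 (P6) and 1208 and 1649.8 (P10). It fell by 0.88 on the log2 scale at P6 and by 0.92 at P10 (SE 0.20 each, limma adjusted p = 0.0182 and 0.0160). Actn4 had 155 and 124 at P0, 90.6 to 113 at P2 and P4, then 53.2 and 52.8 (P6) and 46.4 and 68.7 (P10). Its falls were 1.37 and 1.28 (SE 0.27 each, adjusted p = 0.0114 and 0.0154).

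Pdlim5, a PDZ and LIM domain protein that binds alpha-actinin, had 274 and 295 at P0, 174 to 193 in the 4 libraries of P2 and P4, then 119 and 131 (P6) and 138 and 174 (P10). It fell by 1.18 at P6 and by 0.87 at P10 (SE 0.20 each, limma adjusted p = 0.00654 and 0.0206). Actn1, Actn4 and Pdlim5 missed the threshold without either P0 library at both passages, Actn1 also without P6 replicate 1 at P6 and Pdlim5 without either P4 library at P10 (highest adjusted p = 0.147, 0.136 and 0.126). Related genes such as Actn1 and Actn4 may share reads where their sequences match, which was not examined here. How such reads were counted was not stated.

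The remaining actin-linked members did not pass in any comparison. Tns1 and Tns3, tensins that bind integrin tails, stayed between 907 and 1271 and between 1065 and 1475. Their differences at P10 were -0.13 and -0.21 on the log2 scale (limma adjusted p = 0.649 and 0.388). Flna, filamin A, had 16860 and 15047 at P0 and 9181 to 17234 afterwards.

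**Figure D2:**
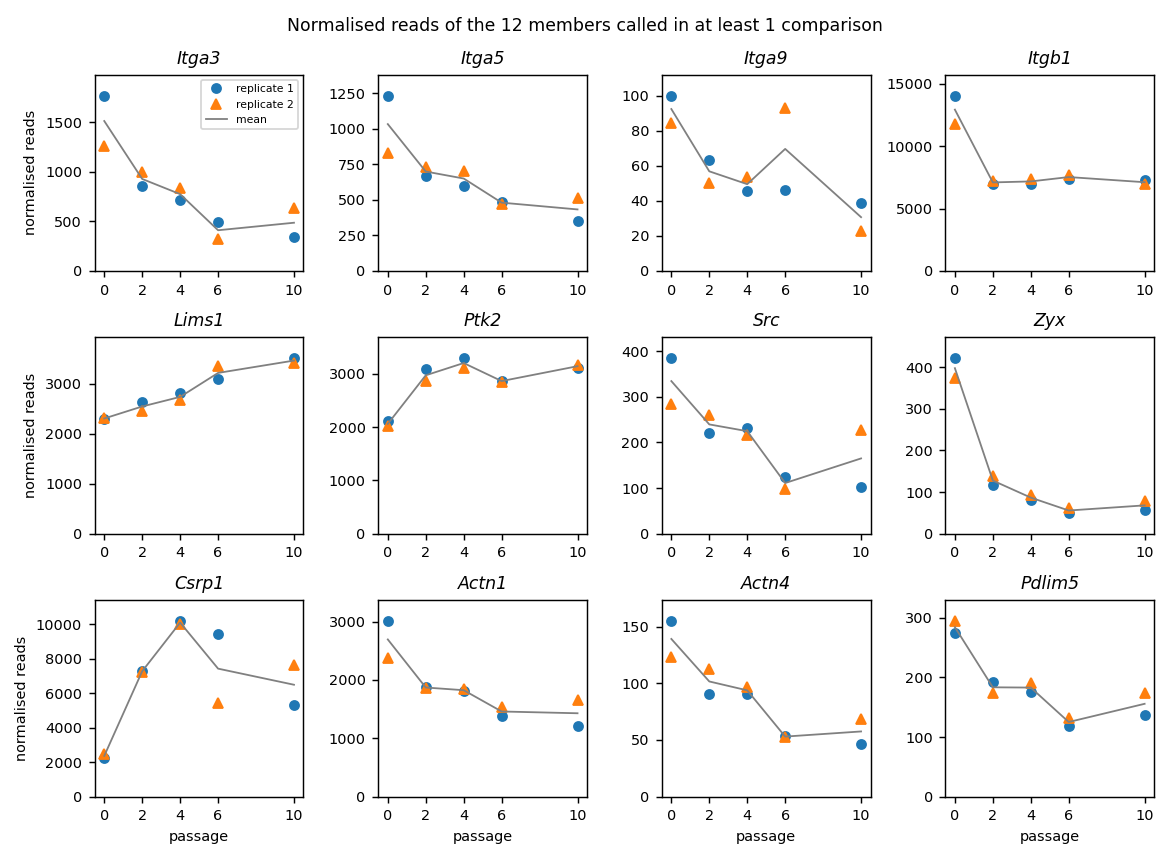
Normalised reads (vertical axis, from 0) by passage (horizontal axis) for the 12 members called in at least 1 of the 6 comparisons; circles are replicate 1, triangles replicate 2 and the grey line joins the passage means. Itgb1 drops once to between 6925 and 7666, Zyx goes down from P0 to P6, and Csrp1 peaks at P4 with 10182 and 10015.

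**Figure D3:**
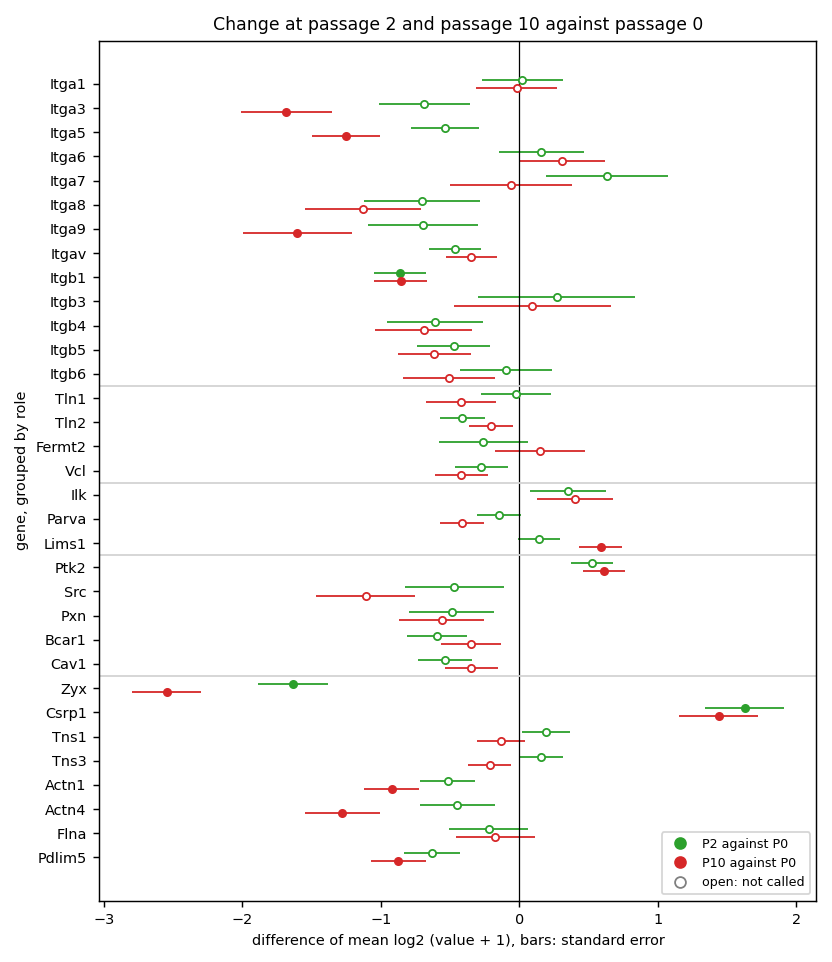
Difference of mean log2 (value + 1) from P0 at P2 (green) and P10 (red) for the 33 tested members, grouped by role, with standard errors from the limma fit; filled points passed at an adjusted p under 0.05. At P2 only Itgb1, Zyx and Csrp1 are filled, and at P10 there are 11 filled points, 8 of them left of 0.

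Contrasts between the later passages asked whether the members went on changing after P2, with the P0 libraries still part of the spread. None of the 33 passed between P10 and P2 (limma), where 1.26% of all tested features did (0.636% lower and 0.621% higher). In this comparison 11 members lay wholly below and 5 wholly above their P2 libraries, beside 20% and 22.6% of all features. On the recovered reads edgeR called none and DESeq2 called 1, and without P10 replicate 2 limma called 9 (27.3%, beside 25.9% of all features in that fit). With the 4 libraries of P6 and P10 set against the 4 of P2 and P4, 3 members fell and none rose, 9.09% of members beside 8.14% of all features, of which 3.14% were lower and 5% higher. They were Itga3 (log2 difference -0.97, SE 0.23, limma adjusted p = 0.0422), Actn4 (-0.82, SE 0.19, adjusted p = 0.0392) and Zyx (-0.77, SE 0.18, adjusted p = 0.0383). For each of the 3 genes all 4 late libraries lay below all 4 early ones, as was so for 7 members in all and for 7.88% of all tested features, while 1 member, Lims1, lay wholly above (10.2%). The 3 calls were lost in 8 of the 10 leave-one-out fits (every library of P0, P2, P4 and P6; highest adjusted p = 0.171, 0.177 and 0.171), and without P10 replicate 2 12 members were called (36.4%, beside 47.3% of all features in that fit). Itga7 (-1.17, adjusted p = 0.0534), Itga5 (-0.57, adjusted p = 0.0680) and Src (-0.83, adjusted p = 0.0685) did not pass.

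The late duplicates disagreed for many members. The 2 libraries differed by over 0.5 on the log2 scale in 18 of 33 members at P10 and in 11 at P6, beside 5 at P0, none at P2 and 1 at P4. The shares of members were 54.5% at P10, 33.3% at P6, 15.2% at P0 and 3.03% at P4. Over all tested features the shares were 55.8% at P10, 43.2% at P6, 12.7% at P0, 9.54% at P2 and 7.84% at P4. The members with the widest gaps at P10 were Itga7, with 190 against 517 normalised reads, Fermt2, with 6958 against 3129, and Src, with 102 against 228. In 24 of the 33 members P6 replicate 2 departed from its duplicate in the same direction as P10 replicate 1 did from its own (72.7%, beside 75.7% of all features). Across the 33 members these 2 differences correlated with r = 0.733 and rho = 0.632, and across all 13521 features with r = 0.670 and rho = 0.694. The members share their libraries and are not independent, so this is a description. In these 2 libraries the share of Dym reads was also lowest, and its part in the member values was not tested. Members with almost the same value in both P10 libraries included Itgb1, Lims1, Ptk2 and Parva, with gaps of 0.0275 to 0.0904.

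**Figure D4:**
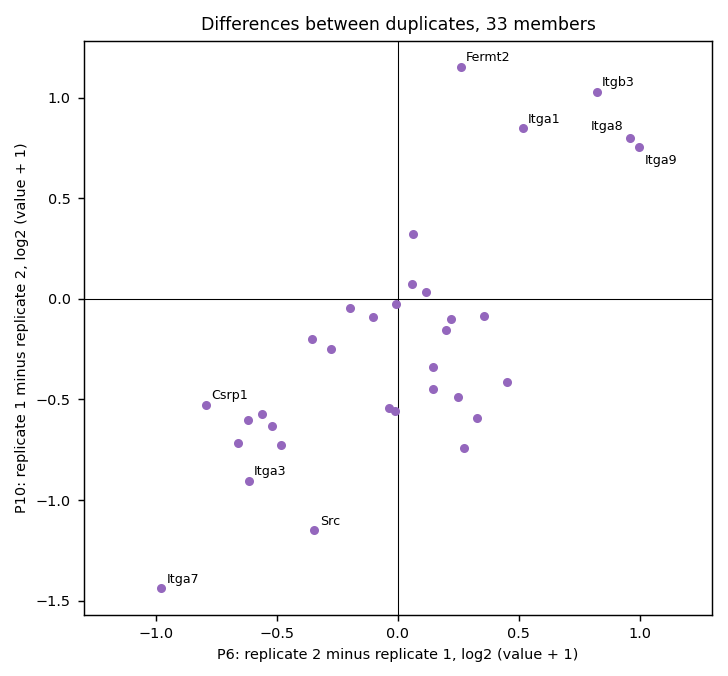
Log2 difference between the duplicates of P6 (replicate 2 minus replicate 1, horizontal axis) and of P10 (replicate 1 minus replicate 2, vertical axis) for the 33 tested members; each point is a gene and the widest are named. Points lie mainly in the lower left and upper right, with Itga7 and Src low, and Fermt2 and Itgb3 high, in P10 replicate 1.

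Other genes of the adhesion machinery were taken from 4 further lists drawn up by function, with earlier results of these data known; of each list the called genes with the smallest p at P10 are named. Among 29 tested adaptors and scaffolds, 6 fell and 1 rose at P10 (24.1% beside 17% of all features; 20.7% lower beside 8.25%, and 3.45% higher beside 8.77%; median log2 difference -0.13). Evl, an actin-elongating protein of the Ena/VASP family, fell from 287 ± 60.1 to 82.9 ± 6.32 normalised reads. Tgfb1i1, the paxillin relative Hic-5, fell from 262 ± 59.5 to 101 ± 12.5. Tes, testin, a LIM protein that binds zyxin, rose from 608 ± 38.5 to 1206 ± 228. The log2 changes were -1.76, -1.35 and 0.98 (limma adjusted p = 0.00543, 0.0126 and 0.00927). Without P0 replicate 1 none of the 29 was called and Evl and Tgfb1i1 missed the threshold (adjusted p = 0.0672 and 0.124). Tes missed it without either P0 library (highest adjusted p = 0.0719).

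Of 29 further signalling genes, 5 fell and 3 rose at P10 (27.6% beside 17% of all features; 17.2% lower beside 8.25%, and 10.3% higher beside 8.77%; median -0.37). Arhgef7, the beta-PIX exchange factor, fell by 0.99 on the log2 scale and Elmo1, a partner of Dock1 in Rac activation, by 1.51. Cdc42, a small GTPase of cell polarity, rose by 0.96 and Yes1, a relative of Src, by 0.80. Their limma adjusted p-values were 0.00614, 0.00814, 0.0106 and 0.0144. Without P0 replicate 1 none of the 29 was called and all 4 missed the threshold, as did Elmo1, Cdc42 and Yes1 without P0 replicate 2 (highest adjusted p = 0.0727, 0.0674, 0.0962 and 0.132). Ptk2b, the FAK relative Pyk2, is named here because its values stood out after they were seen. Its 6 libraries before P6 had 11630 to 17127 normalised reads, the P6 pair had 31383 and 101592, and the P10 pair 83744 and 14942. It did not pass (log2 difference at P6 2.00, adjusted p = 0.0934).

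Of 20 tested ligands of integrins, 7 rose and 2 fell at P2, whereas at P10 3 rose and 7 fell against P0. The shares called were 45% and 50% of the list, beside 4.15% and 17% of all features. Col4a2, with 5.23 and 4.31 normalised reads at P0, and Col1a1, with 3.48 and 7.19, passed the filter only through later libraries, which favours rises. The median log2 difference was 0.57 at P2 and -0.58 at P10. In P6 and P10 against P2 and P4, 12 fell and 1 rose (65% beside 8.14%), with the P0 libraries entering only through the spread. With the libraries of those 4 passages alone, 4 fell and none rose (all features 0.732%). At P10 Col4a1 and Col4a2, the collagen IV chains, were higher by 5.25 and 4.13 on the log2 scale, and Thbs1, thrombospondin 1, and Cyr61 lower, by -3.81 and -2.33. All 4 passed whichever of the 10 libraries was left out, with adjusted p-values of at most 0.0140 in those fits. The list counts at P2, at P10 and between late and early passages ranged from 4 to 11, 5 to 12 and 2 to 15 in those fits, with the lowest of them without P0 replicate 1 or either P2 library, without P0 replicate 1, and without any library of P2 or P4.

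Of 13 membrane proteins that associate with integrins, 3 fell and 1 rose at P10 (30.8% beside 17% of all features; 23.1% lower beside 8.25%, and 7.69% higher beside 8.77%; median -0.23). Cd47, a partner of alpha V integrins, fell from 718 ± 60.7 to 408 ± 9.01, and the tetraspanin Cd9 from 27.0 ± 8.59 to 4.36 ± 3.77. Tspan3, another tetraspanin, rose from 3512 ± 273 to 8444 ± 2078. The log2 changes were -0.81, -2.56 and 1.25 (limma adjusted p = 0.0131, 0.0170 and 0.00857). Without either P0 library none of the 13 was called (highest adjusted p of the 3 genes 0.123, 0.119 and 0.0735).

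An integrin chain outside the list, Itgax, is typical of myeloid leukocytes and had 1 read over the 2 P0 libraries. It had 68 reads at P2, 139 at P4, 44 at P6 and 64 at P10. Reads pooled over the 2 libraries of a passage were divided by their summed size factors, which is not a mean of normalised reads. The ratio of these to P0 was 67.6 at P2 (95% exact binomial counting interval 11.7 to 2710) and 47.8 at P10 (8.28 to 1920). The intervals cover counting error only. Its P10 call (limma adjusted p = 0.00176) held whichever of the 10 libraries was left out (highest adjusted p = 0.0194), but not with the P0 and P10 libraries alone. Its beta partner Itgb2 had at most 5.62 normalised reads in any library, and Cd14 had 1 read in all. Of the 10 leukocyte markers listed, 5 were tested and 1, Itgax itself, rose at P10 (20% beside 8.77% of all features higher). At P4 and at P6, 2 of the 5 rose (40% beside 3.72% and 10.5%), and at P2 1 rose (20% beside 2.08%). The filter takes the mean of all 10 libraries. Itgax, with 0 and 1.44 normalised reads at P0, and Laptm5, with 5.23 and 0, passed it only through later libraries. The shares therefore favour rises and do not describe the list as a whole. Cd68 had 32.2 and 37.4 normalised reads at P0, 82.1 to 111 at P4 and P6, and 75.9 and 44.5 at P10. The summed level of the 10 leukocyte markers was 66.2 and 77.6 at P0 and 125 to 242 afterwards. A few genes made up most of it. At P4 the sums were 193 and 241, of which Itgax held 71.2 and 78.1 and Cd68 82.1 and 97.9. Laptm5 had 43.8 in P6 replicate 2 and 33.8 in P10 replicate 1, and at most 10.5 elsewhere. Ptprc had 9.58 and 18.7 at P0 and 11.9 to 29.2 afterwards. The part of other cells in the summed level was not tested.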

How the data were processed

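RNA from 10 CHO-K1 libraries was extracted with TRIzol, depleted of ribosomal RNA and made into stranded libraries, per the labels' protocols. The deposited values are a signal, namely reads scaled by size factors; the submitters' processing notes name DESeq for this. Which aligner, counter, build and annotation the authors used is not given in the sources used here. Groups came from the passage label and replicate numbers from the titles. Gene numbers were matched to symbols through a RefSeq table of CriGri-PICRH-1.0, of which no coordinates were used.

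Features averaging 10 or more were tested with limma 3.58.1 under R 4.3.3 on log2(deposited value + 1). A single model held the 5 passage means over all 10 libraries, leaving 5 residual degrees of freedom, with a trended prior. Two-sided p-values were adjusted by Benjamini-Hochberg over 13521 features within each of 6 comparisons, with a threshold of 0.05. Log2 changes and differences are on the log2(value + 1) scale and understate changes of low genes. The fold values of Itga3 and Itgb1 are ratios of mean normalised reads. Values with ± are mean ± SD of normalised reads.

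In each column 100% of values were whole multiples of the smallest value within 0.01 reads, so whole reads were recovered for edgeR 4.0.16 and DESeq2 1.42.0; for P4 replicate 1 the step lies near 1, so this reading is less certain. Reads of 8394219 to 16599495 per library limit precision for genes of few reads. On these recovered counts edgeR called 2348 and DESeq2 3021 features at P10 against P0, and limma, on the deposited values, 2301. Alternatives were another pseudocount, other filters, a replicate block, fewer libraries and both count tools. Steps were tested on simulated data.

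Members, lists and tests were chosen with earlier results of these data known. Members called in at least 1 comparison were given by library. For Itgb1, Ptk2, Actn1, Actn4 and Pdlim5 some or all later libraries were given as a range. Members not called were given by range, with values for the 2 of smallest p per role. Up to 2 called genes per direction were named in each further list at P10. Itga1, Itga6, Itga7, Itgav, Fermt2, Flna, Bcar1, Tln2, Ptk2b and Itgax are named beyond this. Of the 6 comparisons, 4 were against P0, 1 was P10 against P2 and 1 the late against the early passages. Marker lists covered leukocyte, epithelial, mesenchymal, endothelial and granulosa cells. At P10, 1 of 5 tested mesenchymal markers (Pdgfra) fell, 20% beside 8.25% of all features lower. Of 4 granulosa markers 1 (Star) rose, 25% beside 8.77% of all features higher. None of 4 endothelial markers nor the 1 epithelial marker tested (Cdh1) passed at P10. Against P0, 3 of the 5 mesenchymal markers rose at P4 (60% beside 3.72%) and 1 at P2 (20% beside 2.08%). Of these 5, Col1a1, with 3.48 and 7.19 normalised reads at P0, passed the filter only through its P2 and P4 libraries. At P6, 1 mesenchymal and 1 endothelial marker fell (20% and 25% beside 10.5%).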

Additional observations from a re-analysis of the deposited data

Results flagged for a closer look

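In 3 members the difference from P0 itself differed between the late passages (P6 and P10) and the early ones (P2 and P4), by the limma contrast of the 4 late with the 4 early libraries. The log2 differences were -0.97 for Itga3 (adjusted p = 0.0422), -0.77 for Zyx (0.0383) and -0.82 for Actn4 (0.0392). In each, all 4 late libraries lay below all 4 early libraries. With 2 libraries a passage, single outlying libraries could not be tested for.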

How the results depend on the processing

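All 30 member calls kept their direction in all 18 alternatives, 540 fits of a gene in all, and 396 of these stayed past the threshold. With the other pseudocount, the stricter filter or DESeq2 all 30 stayed past it, and with edgeR 29 did (Itgb1 at P2 had an adjusted p of 0.0528). Without both P6 replicate 2 and P10 replicate 1 the counts of members called were 18 at P2, 18 at P4, 18 at P6, 21 at P10, 4 for P10 against P2 and 14 for late against early passages, beside 3, 4, 9, 11, 0 and 3. In those fits 34.1%, 43.1%, 48.8%, 46.3%, 22% and 26.8% of all features were called, beside 54.5%, 54.5%, 54.5%, 63.6%, 12.1% and 42.4% of members. With only the libraries of the passages compared they were 16 at P2, 18 at P4, 0 at P10 and 0 for late against early (all features 29.1%, 42%, 0.362% and 0.732%). DESeq2 gave 5 at P2, 1 for P10 against P2 and 8 for late against early (all features 7.85%, 6.18% and 18.8%). Without a filter on low values they were 2 at P4 and 0 for late against early (all features 4.7% and 2.9%). Leaving out 1 library gave 0 to 5 at P2, 1 to 9 at P4, 1 to 16 at P6, 1 to 16 at P10, 0 to 9 for P10 against P2 and 0 to 12 for late against early; these fits also have fewer degrees of freedom. The cause of the other shifts was not tested.

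The replicate numbers did not pair the libraries: correlations of same-numbered deviations ran from -0.670 (P6 with P10) to 0.225. With the replicate number as a block, 2 members were called at P4 and 0 for late against early (all features 5.67% and 2.54%), and 22 of the 30 calls were kept. At P10 the block left 9 members (27.3% beside 12.5% of all features) and 3 of the adaptors in place of 7. For late against early passages it left 7 ligands in place of 13. Without both P6 replicate 2 and P10 replicate 1 the P10 counts of the 4 further lists were 17, 19, 14 and 7 in place of 7, 8, 10 and 4, and with the P0 and P10 libraries alone 0, 0, 3 and 0; these list counts and those of single list genes were added after seeing the data. Leaving out 1 library gave 0 to 9, 0 to 12, 5 to 12 and 0 to 7.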
